A study of Mus musculus with 32 samples.

Results

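The change from postnatal day (P) 21 to P35 in tibialis anterior (TA) muscle of *Mtm1* knockout (KO) mice was followed in 8 of the 32 libraries of the series, 4 KO libraries at each age. The members were chosen by the genotype and age in their labels. KO mice lack exon 4 of *Mtm1* in every cell of the body, on the C57BL6/J background, so that the loss was not confined to muscle fibres. WT mice of the same strain and ages (n=4 at P21 and n=4 at P35) were read beside them. The labels give no treatment, each library came from a different mouse, and a P21 and a P35 value are therefore not 2 readings of 1 animal. The 16 libraries of P1 and P14 entered the test of whether the change with age differed between KO and WT, the scaling of the levels, and an alternative fit of all 32 libraries.

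Myotubularin, the product of *Mtm1*, is a lipid phosphatase that removes a phosphate from phosphoinositides of the endosomal membrane. Its loss causes X-linked myotubular myopathy, a congenital muscle disease with small fibres, central nuclei and disordered triads, the junctions of a transverse tubule and the sarcoplasmic reticulum at which excitation is coupled to calcium release. The TA is a fast muscle. Around weaning its fibres still enlarge, and slow and developmental sarcomere proteins retreat. In KO mice of this kind the symptoms begin around the younger age, and the older age is the endpoint with severe hindlimb weakness.

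The total of estimated counts was 49889311 to 54034270 per library at P21 and 58423499 to 65108067 at P35 in KO, and 49321035 to 59697932 over the 8 WT libraries. Levels are given as CPM, counts divided by a library size that is scaled by the trimmed mean of M values (TMM), which sets the libraries to 1 common scale but does not correct for gene length. A gene was called changed when the adjusted *P* of edgeR's quasi-likelihood test was under 0.01 and the fold change was over 1.5. All tests were two-sided. Replicate 2 of the P35 KO group stood apart from the others and held bone and matrix transcripts that the other P35 KO libraries had at lower levels or lacked. Replicate 3 of the P21 KO group held the tendon marker genes at a summed 988 CPM, against 154, 194 and 220 CPM in the other P21 KO libraries. Where the call of a gene selected by the naming rule was lost without these 2 libraries, the adjusted *P* without them is given beside it. The 2 libraries were picked out after the values were seen. A call lost without them is not shown to depend on them, because fewer libraries enter that fit.

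*Mtm1* (ENSMUSG00000031337, GRCm38, chromosome X, 71210767 to 71315691, plus strand) was at 3.69, 2.64, 2.85 and 3.38 CPM in the P21 KO libraries and at 3.71, 3.95, 3.32 and 3.78 CPM in the P35 KO libraries. The WT libraries held 18.9 to 21.8 CPM at P21 and 20.7 to 24.9 CPM at P35, so that every KO library lay below every WT library. The KO difference between ages was 0.25 on the log2 scale (SE 0.140), with adjusted *P*=0.218. The counts are of the whole gene and do not show which exons the remaining reads cover.

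Of 15734 genes tested in KO, 631 changed between P21 and P35 (4.01%), 326 upward (2.07%) and 305 downward (1.94%), and 38.7% had an unadjusted *P* under 0.05. Counts of called members of a gene list are read beside these shares, and a list with 1 or a few calls may lie near them. Of the 631, 238 differed by more than 1 and 47 by more than 2 on the log2 scale. The CPM ranges of the age groups did not overlap for 630 of them, beside 27.1% of all genes tested. The calls and the ranges come from the same libraries, so separate ranges of a called gene are a description and not further support. In WT the same interval changed 368 of 15039 genes (2.45%), 210 upward (1.4%) and 158 downward (1.05%). The changed genes common to KO and WT were 106, which is 16.8% of the KO calls and 28.8% of the WT calls, and all 106 had the same direction, 53 upward and 53 downward. A call in 1 genotype and not in the other does not show a difference between them. The difference itself was tested as an interaction of age with genotype, and 86 of 18583 genes passed an adjusted *P* of 0.01 (0.463%), 28 with the higher change in KO (0.151%) and 58 with the lower (0.312%). This test drew its estimate of spread from all 32 libraries. From the 16 libraries of P21 and P35 alone 9 genes passed, and of the 14 genes named for an interaction *Tnnt1* and *Lrtm2* kept it, with adjusted *P* of the other 12 between 0.0195 and 0.0423. Of the 66 changed genes that the naming rule selected, 29 kept their call in each of the 8 fits that left out 1 KO library, and 37 lost it in at least 1 (adjusted *P* up to 0.0324), with no change of sign. Without both libraries that stood apart, 47 of the 66 kept their call, and the adjusted *P* of the others was 0.0102 to 0.0226. The split between upward and downward KO calls depended on the scaling. With library totals in place of TMM, the median log2 change over all genes moved from 0.025 to 0.16 and the calls became 762 upward and 152 downward.

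**Figure D1:**
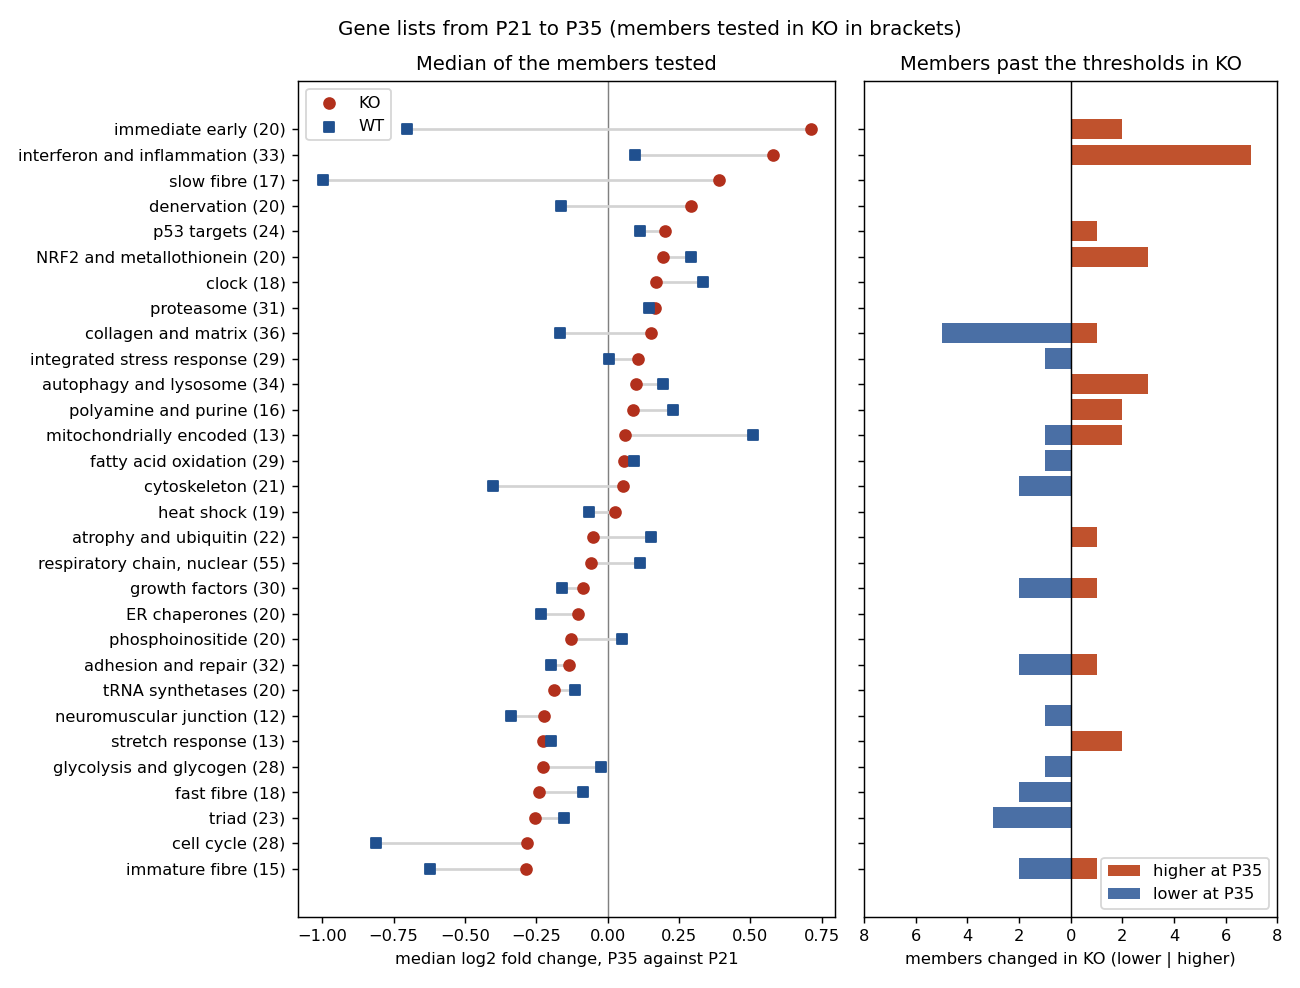
Median log2 fold change from P21 to P35 over the tested genes of each of the 30 gene lists, with KO and WT drawn separately (x axis, log2 fold change, a list per line of the y axis), beside bars for the number of members called upward and downward in KO. The slow fibre list had a median of 0.39 in KO and -1.0 in WT, and the immediate early list 0.71 and -0.70, which were the widest gaps.

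The triad genes among the changed set all fell. Of 23 tested genes of the triad and of excitation-contraction coupling, 3 fell and 0 rose, beside 1.94% and 2.07% of all genes tested. The list median was -0.26 beside 0.025 for all genes. *Ryr1* (GRCm38, chromosome 7, 29003344 to 29125179, minus strand), the calcium release channel of the sarcoplasmic reticulum, was at 5083, 3805, 3919 and 4143 CPM at P21 and at 2446, 2415, 2169 and 2099 CPM at P35 in KO. All P35 values lay below all P21 values, and the highest P35 library was well under the lowest P21 library. The log2 fold change was -0.88 (SE 0.116, adjusted *P*=0.00240). *Cacna1s* (GRCm38, chromosome 1, 136052750 to 136119822, plus strand), the voltage sensor of the transverse tubule that gates *Ryr1*, went from 1382, 1220.4, 1185 and 1261 CPM to 806, 687, 694 and 702 CPM, with replicate 1 the highest at both ages and no overlap. Its log2 fold change was -0.79 (SE 0.0862, adjusted *P*=0.00139). *Speg*, a kinase of the triad that binds myotubularin, was at 421, 369, 362 and 347 CPM and then at 244, 218, 177 and 189 CPM. The log2 fold change of *Speg* was -0.84 (SE 0.112, adjusted *P*=0.00240), and its groups did not overlap either.

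The same genes in WT were not called. *Ryr1* went from 5392, 4138, 4048 and 5082 CPM to 4429, 2728, 3463 and 3271 CPM in WT, and the highest P35 library overlapped the P21 range. The WT log2 differences were -0.44 for *Ryr1* (adjusted *P*=0.0904), -0.37 for *Cacna1s* (adjusted *P*=0.0613) and -0.50 for *Speg* (adjusted *P*=0.0279). The interaction estimates were -0.47 (SE 0.270, adjusted *P*=0.384), -0.45 (SE 0.235, adjusted *P*=0.321) and -0.37 (SE 0.204, adjusted *P*=0.352), so that a steeper fall in KO was not shown for any of these 3. All 3 kept their KO call in each of the 8 fits that left out 1 library.

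Genes of cell adhesion and of the membrane skeleton were among those that fell. The list of the dystrophin-glycoprotein complex and membrane repair had 2 genes down and 1 up of 32, with a median of -0.14. Of all genes tested, 1.94% fell and 2.07% rose. *Tln2*, a talin that links integrins to actin, was at 211, 182, 187 and 199.9 CPM at P21 and at 84.5, 97.6, 80.9 and 80.5 CPM at P35. The P35 values were close together and far below the P21 range. The log2 fold change was -1.17 (SE 0.0857, adjusted *P*=0.000263). *Tln2* was also called in WT, at -0.80 (SE 0.139, adjusted *P*=0.00752), and the interaction was -0.40 (adjusted *P*=0.319). *Capn3*, the muscle calpain that is held by titin, went from 133, 139, 134 and 148 CPM to 91.7, 85.9, 86.5 and 96.2 CPM in KO, or -0.61 on the log2 scale (SE 0.0663, adjusted *P*=0.00139). With library totals in place of TMM this was -0.47, under the fold threshold. *Anxa1*, a calcium-dependent phospholipid-binding protein of membrane repair, rose from 29.7, 34.2, 29.2 and 26.6 CPM to 47.9, 60.2, 58.1 and 49.4 CPM. Its groups were well separated, and the log2 fold change was 0.86 (SE 0.103, adjusted *P*=0.00167). Of 21 cytoskeletal genes 2 fell, beside 1.94% of all genes tested. *Plec*, the linker plectin, was at 1012, 967, 786 and 809.9 CPM and then at 519, 674, 539.5 and 584 CPM, and *Tuba8*, an alpha tubulin, was at 259.9, 280.4, 259.9 and 245 CPM and then at 143, 155, 143 and 198 CPM. The log2 fold changes were -0.61 (adjusted *P*=0.00725) and -0.69 (adjusted *P*=0.00389), and both calls were lost with library totals. The adjusted *P* of *Tuba8* was 0.0149 without the 2 libraries that stood apart, and in the fit of all 32 libraries it was 0.0136.

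Of 18 fast fibre genes 2 fell, beside 1.94% of all genes tested, and the list median was -0.24. *Myh1*, the myosin heavy chain of type 2X fibres, was at 20801, 19983, 14571 and 15721 CPM at P21 and at 11420.2, 11203, 8498 and 8898 CPM at P35 in KO. The age groups were separate, while the WT libraries spread over 14945 to 30781 CPM at P21 and 10002 to 22214 CPM at P35. The KO log2 fold change of *Myh1* was -0.81 (SE 0.161, adjusted *P*=0.00884). *Acta1*, skeletal alpha actin, went from 29932, 33073, 29381 and 31144 CPM to 22844, 19367, 16146 and 19118 CPM, or -0.66 on the log2 scale (SE 0.131, adjusted *P*=0.00893). Both calls lay close to the threshold. Each was kept in 1 of the 8 fits without 1 library (adjusted *P* up to 0.0274 and 0.0262), and neither was kept with library totals. In the fit over all 32 libraries the adjusted *P* of *Myh1* was 0.0485, and without the 2 libraries that stood apart that of *Acta1* was 0.0156. *Myh4*, the myosin of type 2B fibres, was not called, with 45407, 41721, 40355 and 50698 CPM at P21 and 24879, 14357, 32060.0 and 32502 CPM at P35 (log2 difference -0.77, adjusted *P*=0.0437). The summed level of the 6 myofibre marker genes was 127779, 127118, 116323 and 132913 CPM at P21 and 88635, 65527, 81573 and 89424 CPM at P35 in KO, with no overlap. In WT the sum was 133601 to 174568 CPM at P21 and 105330 to 146933 CPM at P35, with overlap. In a whole muscle, fewer fibres or cells of a type and less RNA per cell cannot be told apart.

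**Figure D2:**
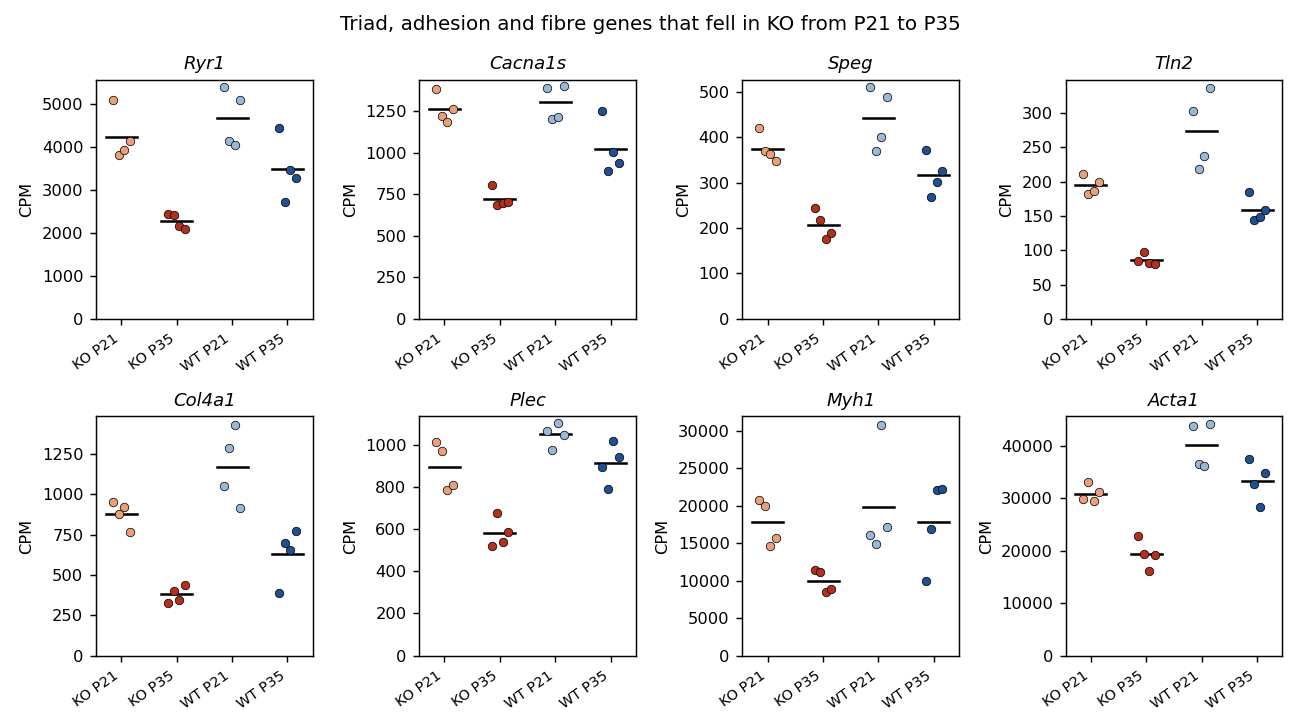
Levels of *Ryr1*, *Cacna1s*, *Speg*, *Tln2*, *Col4a1*, *Plec*, *Myh1* and *Acta1* in each library (y axis, CPM from 0, a panel per gene) for KO and WT at P21 and P35, with a point per library and a bar at the mean of 4. In every panel the P35 KO points lie below all P21 KO points, and for *Ryr1* the P35 KO libraries span 2099 to 2446 CPM.

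Chains of the basement membrane collagens and of collagen VI were among the genes that fell. Of 36 collagen and matrix genes 5 fell and 1 rose, beside 1.94% and 2.07% of all genes tested, and the list median was 0.15. *Col4a1*, a chain of the collagen IV network, was at 952, 878, 921 and 769.6 CPM at P21 and at 328, 404, 347 and 439 CPM at P35 in KO. *Col4a2*, its partner chain, was at 619, 568, 589.5 and 509.9 CPM and then at 220.1, 285, 235 and 288 CPM. Every P35 library of either gene lay far below every P21 library. The log2 fold changes were -1.20 (SE 0.111, adjusted *P*=0.000641) and -1.14 (SE 0.107, adjusted *P*=0.000715). *Col15a1*, a basement membrane collagen of muscle and vessels, fell from 223, 240.2, 242 and 216 CPM to 93.5, 134, 107 and 132 CPM (log2 -0.97, SE 0.117, adjusted *P*=0.00171). Its WT difference was -0.96 (adjusted *P*=0.0194), and the interaction was -0.04 (adjusted *P*=0.969). *Col6a2* and *Col6a1*, chains of the microfibrillar collagen VI around fibres, fell, with -0.68 (adjusted *P*=0.00240) and -0.67 (adjusted *P*=0.00443) on the log2 scale. With library totals the value of *Col6a2* was -0.54, under the fold threshold. In WT the collagen IV genes were lower at P35 too, with log2 differences of -0.92 for *Col4a1* (adjusted *P*=0.0216) and -0.92 for *Col4a2* (adjusted *P*=0.0153), short of the threshold for a call. The interaction for *Col4a1* was -0.32 (SE 0.238, adjusted *P*=0.522).

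The summed level of the endothelial marker genes was lower at P35 as well. It was 691, 636, 734 and 620.1 CPM at P21 and 489.8, 489, 432 and 505 CPM at P35 in KO. In WT it was 786 to 1137 CPM at P21 and 576 to 894 CPM at P35, with overlap. Of the 9 genes 3 fell in KO, namely *Cdh5*, *Kdr* and *Tek*, beside 1.94% of all genes tested. *Kdr*, the VEGF receptor of endothelium, went from 107, 112, 99.3 and 83.1 CPM to 35.3, 60.2, 38.9 and 62.0 CPM (log2 -1.02, adjusted *P*=0.00688). The 8 mural cell markers summed to 1289 to 1539 CPM at P21 and 1122 to 1219 CPM at P35 in KO. The part of either cell type in the collagen values was not tested.

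The steepest falls concerned genes of red cells and fetal growth, and many of them were called in WT too. All 6 erythroid marker genes fell in KO and all 6 fell in WT, beside 1.94% and 1.05% of all genes tested. *Alas2*, the first enzyme of haem synthesis in red cell precursors, was at 23.7, 41.6, 38.5 and 41.3 CPM at P21 and at 1.60, 1.64, 3.80 and 1.82 CPM at P35 in KO. In WT it was at 60.9, 45.9, 66.3 and 57.2 CPM and then at 4.31, 1.5, 5.79 and 5.56 CPM. In both genotypes all P35 libraries lay far below all P21 libraries, and in KO the naming rule required groups that do not overlap. The log2 fold changes were -4.02 in KO (SE 0.316, adjusted *P*=0.000301) and -3.76 in WT (SE 0.346, adjusted *P*=0.000763). The globins *Hba-a1*, *Hba-a2*, *Hbb-bs* and *Hbb-bt* fell in KO, with log2 fold changes of -3.41, -3.54, -2.94 and -3.10. Reads of the alpha globin copies, and of the beta globin copies, can be split between near-identical genes, so these values are read as a family. Replicate 3 of the P35 KO group was the highest of its group for *Alas2* and for each of the 4 globins. *Slc4a1*, the anion exchanger of the red cell membrane, had 153, 239, 124 and 134 counts at P21 and 2, 4, 11 and 1 at P35 in KO. It was called as fallen, and no fold is given because the P35 counts are so few.

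Among growth genes, *Igf2*, a fetal insulin-like growth factor, was at 414, 321, 398 and 303 CPM at P21 and at 96.2, 142, 99.6 and 109.6 CPM at P35 in KO. In WT it was at 614, 376, 396 and 366 CPM and then at 63.8, 75.4, 78.7 and 96.7 CPM, so that the P35 KO libraries lay mostly above the P35 WT libraries. The log2 fold changes were -1.67 in KO (SE 0.151, adjusted *P*=0.000614) and -2.49 in WT (adjusted *P*=0.000558), and the interaction of 0.80 did not pass (adjusted *P*=0.162). *Grb10*, an imprinted adaptor that dampens insulin signalling, fell from 183, 158, 187 and 134 CPM to 86.3, 99.2, 85.2 and 87.7 CPM (log2 -0.87, adjusted *P*=0.00215), with -1.08 in WT (adjusted *P*=0.000943). *Dlk1*, an imprinted membrane protein of immature muscle, fell from 15.8, 10.05, 15.5 and 13.6 CPM to 1.75, 2.70, 2.10 and 2.33 CPM (log2 -2.61, SE 0.182, adjusted *P*=0.000263). It was also called in WT, at -2.24 (adjusted *P*=0.00133). *Agtr2*, an angiotensin receptor of fetal tissue, and *Ttbk1*, a tau tubulin kinase, fell, with -2.63 and -2.12 on the log2 scale (adjusted *P*=0.00392 and 0.00315), and both were also called in WT, at -3.41 and -1.84. *Kl*, which encodes klotho, was at 0.906, 0.479, 1.76 and 0.978 CPM and then at 0.217, 0.265, 0.122 and 0.143 CPM, or -2.43 on the log2 scale (adjusted *P*=0.00564). Without the 2 libraries that stood apart, the adjusted *P* in KO was 0.0114 for *Ttbk1* and 0.0107 for *Kl*.

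*Fst*, which encodes the myostatin antagonist follistatin, was the growth gene that rose. It was at 16.7, 12.8, 15.4 and 13.8 CPM at P21 and at 25.1, 43.6, 32.8 and 22.2 CPM at P35 in KO, and at 3.98 to 8.30 CPM and 3.37 to 6.43 CPM in WT. Every P35 KO library exceeded every other library of these 16, and the KO log2 fold change was 1.09 (SE 0.200, adjusted *P*=0.00645). The interaction was 1.43 (SE 0.306, adjusted *P*=0.0124), just short of the threshold. Without replicate 2 of the P35 KO group and replicate 3 of the P21 KO group the adjusted *P* of *Fst* in KO was 0.0121.

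*Pm20d2*, a peptidase that breaks down dipeptide by-products of carnosine synthesis, was the only gene among the 12 with the lowest KO fold changes whose interaction passed. It was at 18.3, 8.88, 12.2 and 9.18 CPM at P21 and at 3.02, 3.66, 1.87 and 2.87 CPM at P35 in KO, against 28.8, 21.7, 27.6 and 22.4 CPM and 15.8, 15.7, 24.8 and 20.7 CPM in WT. The KO age groups did not overlap, which the naming rule required, and the WT age groups did. The log2 fold change was -2.07 in KO (SE 0.272, adjusted *P*=0.00237) and -0.40 in WT (adjusted *P*=0.117), and the interaction was -1.70 (SE 0.310, adjusted *P*=0.00360). With 1 library left out the adjusted *P* of the interaction reached 0.0128, and with library totals it was 0.0124.

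The genes with the highest fold changes upward were of low level at P21 and included products of fat and liver. *Cyp2e1* (GRCm38, chromosome 7, 140763739 to 140774987, plus strand), an ethanol- and ketone-oxidising cytochrome of liver and fat, was at 0.159, 0.187, 0.574 and 0.133 CPM at P21 and at 36.6, 26.9, 7.89 and 8.30 CPM at P35 in KO. *Pck1*, the cytosolic phosphoenolpyruvate carboxykinase of gluconeogenesis and of glycerol synthesis in fat, was at 0.113, 0.707, 0.533 and 0.378 CPM and then at 19.6, 12, 4.72 and 2.53 CPM. *Cidec*, a coat protein of lipid droplets, was at 0.181, 0.541, 1.68 and 0.178 CPM and then at 13.1, 12.3, 6.34 and 3.88 CPM. In each case replicates 1 and 2 of the P35 KO group were clearly higher than replicates 3 and 4. Replicates 3 and 4 were still above all P21 libraries, which the naming rule required. The log2 fold changes were 6.22 (SE 0.709, adjusted *P*=0.00159), 4.48 (SE 0.716, adjusted *P*=0.00416) and 3.77 (SE 0.671, adjusted *P*=0.00588). *Hp*, the haemoglobin scavenger haptoglobin, was at 0.589, 1.04, 2.40 and 0.511 CPM and then at 22.6, 23.4, 7.96 and 5.40 CPM (log2 3.71, adjusted *P*=0.00485). *Ces1f*, a carboxylesterase whose reads can be shared with its neighbouring paralogs, had 0, 0, 6 and 0 counts at P21 and 94, 114, 51 and 26 at P35. It was called as risen, and no fold is given because 3 of its P21 libraries had no count. Its adjusted *P* was 0.0102 without the 2 libraries that stood apart.

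The summed level of the adipocyte markers, of which *Cidec* is a member, was higher at P35 in KO as well. The 8 of them summed to 358, 299, 379 and 344 CPM at P21 and to 801, 725, 457 and 489.8 CPM at P35 in KO, with a median log2 difference of 2.63. Of the 8, *Cidec* and *Fabp4* rose, beside 2.07% of all genes tested. *Fabp4*, the fatty acid carrier of adipocytes and capillaries, was at 179, 208, 241 and 205 CPM and then at 438, 400.2, 336 and 367 CPM (log2 0.90, adjusted *P*=0.00208). Most of the sum was *Fabp4* and *Plin4*, with KO means of 208 and 126 CPM at P21 and 385 and 125 CPM at P35. *Plin4* was not called (log2 difference 0.0082, adjusted *P*=0.990). The sum is therefore not read as fat cell content. Replicates 1 and 2 of P35 were the highest for the sum as they were for *Cyp2e1*. In WT the sum was 437 to 600.1 CPM at P21 and 475 to 589 CPM at P35, whereas *Cyp2e1* was at 0.221, 0.541, 0.411 and 0.572 CPM and then at 7.47, 1.17, 5.96 and 0.830 CPM. All P35 WT values of *Cyp2e1* thus lay above all P21 WT values, although the log2 difference of 3.12 was not called (adjusted *P*=0.0212). The part of fat cells in these values was not tested. The interaction did not pass for *Cyp2e1* (3.08, adjusted *P*=0.172), *Pck1* (4.78, adjusted *P*=0.0363), *Cidec* (3.15, adjusted *P*=0.117) or *Hp* (3.61, adjusted *P*=0.0470). Without the 2 libraries that stood apart, the adjusted *P* of *Pck1* was 0.0156.

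**Figure D3:**
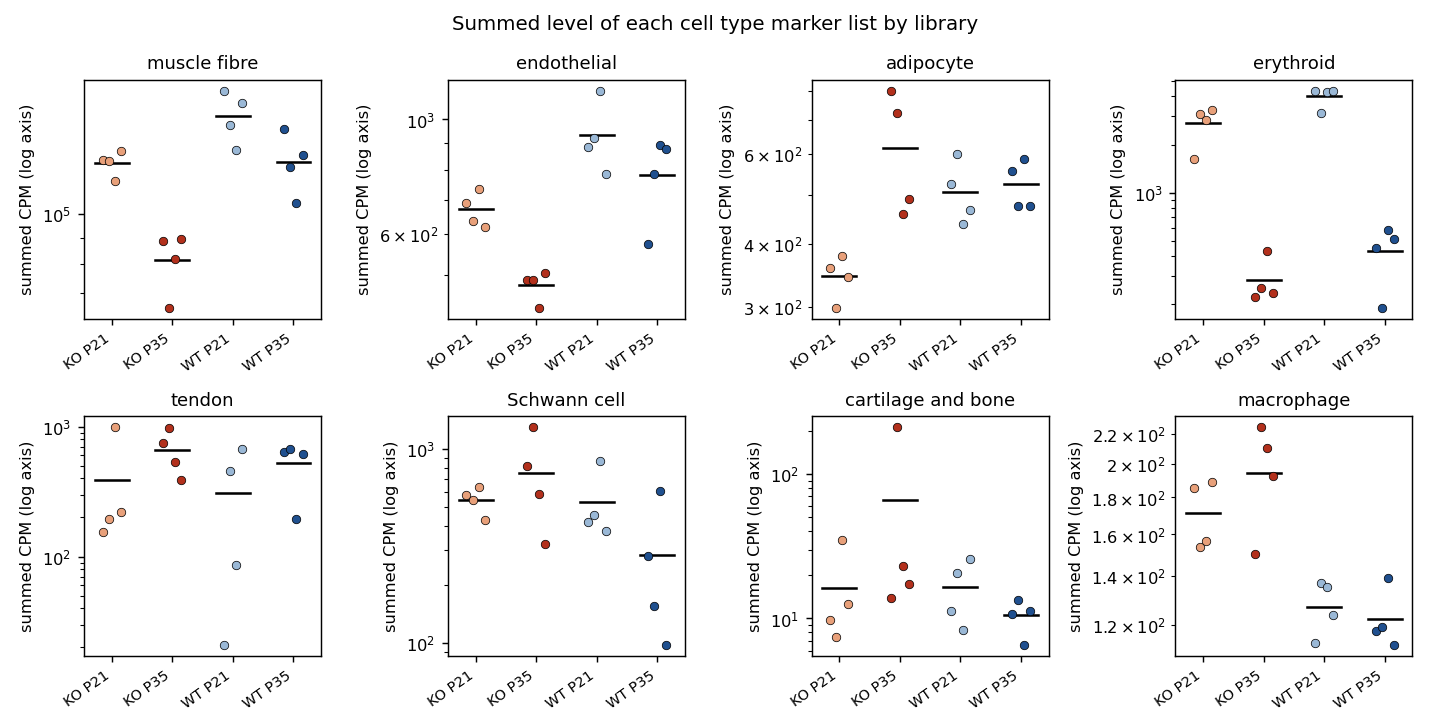
Summed level of the marker genes of 8 cell types in every library (y axis, CPM on a log scale, a panel per cell type) at P21 and P35 in KO and WT, with a point per library and a bar at the mean of 4. The KO erythroid sum went from 1623 to 3279.9 CPM at P21 to 222 to 433 CPM at P35 and the endothelial sum from 620.1 to 734 CPM to 432 to 505 CPM, while the adipocyte sum was higher at P35 in all 4 KO libraries.

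Of the remaining genes with the highest fold changes, *Bdh1*, the mitochondrial enzyme that interconverts ketone bodies, rose in both genotypes. It went from 0.340, 0.624, 1.07 and 0.556 CPM to 8.0, 15.4, 2.91 and 3.78 CPM in KO (log2 3.55, adjusted *P*=0.00443) and from 0.688, 1.5, 1.26 and 0.954 CPM to 4.82, 3.98, 15.9 and 4.66 CPM in WT (log2 2.72, adjusted *P*=0.00874). *Angpt4*, an angiopoietin, was at 0.0679, 0.166, 0.349 and 0.311 CPM and then at 1.69, 1.28, 3.31 and 1.02 CPM in KO (log2 3.02, adjusted *P*=0.00466). *Ccn5*, a matricellular protein, was at 1.09, 0.291, 1.52 and 1.29 CPM and then at 7.23, 10.4, 4.47 and 3.33 CPM (log2 2.62, adjusted *P*=0.00661). All P35 KO libraries lay above all P21 KO libraries for each of these 3 genes, which the naming rule required. The WT differences of *Angpt4* (1.04, adjusted *P*=0.209) and *Ccn5* (2.19, adjusted *P*=0.0251) were not called. Their interactions did not pass (adjusted *P*=0.157 and 0.815). The uncharacterised *4933415F23Rik* was at 0.340, 1.58, 1.78 and 0.822 CPM and then at 6.06, 9.39, 4.59 and 7.18 CPM in KO, while no WT library exceeded 0.623 CPM. Its KO log2 fold change was 2.59 (adjusted *P*=0.00445), and the interaction of 2.74 did not pass (adjusted *P*=0.0473). *9830004L10Rik*, also uncharacterised, rose by 2.52 (adjusted *P*=0.00692), from 0.159 to 0.574 CPM to 1.04 to 3.49 CPM. Without the 2 libraries that stood apart, the adjusted *P* was 0.0102 for *Angpt4*, 0.0141 for *Ccn5* and 0.0114 for *9830004L10Rik*.

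Metallothioneins rose in KO. These small cysteine-rich proteins bind zinc and copper, and their promoters carry metal response elements, short motifs bound by the metal-sensing factor MTF1. The promoters are shown because both genes moved in the same direction and carry the motif several times. The RefSeq sequences of the mouse build GRCm38.p6 from 250 bases before to 30 bases after the start are printed below, with every match to TGCACNC or TGCGCNC on either strand in capitals (a match on the opposite strand reads GNGTGCA or GNGCGCA). *Mt1* at chr8:94178839-94179118 on the plus strand held 3 matches, and *Mt2* at chr8:94172368-94172647 on the plus strand held 4.
Mt1: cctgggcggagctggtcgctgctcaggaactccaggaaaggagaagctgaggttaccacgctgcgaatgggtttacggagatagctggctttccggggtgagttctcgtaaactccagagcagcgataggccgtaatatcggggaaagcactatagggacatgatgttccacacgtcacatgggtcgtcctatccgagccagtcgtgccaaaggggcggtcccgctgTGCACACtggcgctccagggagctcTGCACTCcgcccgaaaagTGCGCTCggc
Mt2: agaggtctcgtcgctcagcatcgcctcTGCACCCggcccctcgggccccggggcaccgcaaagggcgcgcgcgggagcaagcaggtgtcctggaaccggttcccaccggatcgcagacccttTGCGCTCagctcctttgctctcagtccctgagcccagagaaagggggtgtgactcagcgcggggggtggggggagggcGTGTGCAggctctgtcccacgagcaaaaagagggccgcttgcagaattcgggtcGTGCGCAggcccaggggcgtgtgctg
Of 27025 promoters of the same length, 24.0% held at least 1 match and 1.75% held at least 3. A match is a description of the letters and not a measured binding site.

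*Mt2* was at 22.7, 21.7, 30.6 and 36.9 CPM at P21 and at 141, 84.0, 132 and 103 CPM at P35 in KO. *Mt1* was at 18.6, 14.0, 20.9 and 25.8 CPM and then at 84.0, 42.3, 51.3 and 36.1 CPM. For both genes every P35 KO library lay above every P21 KO library, and replicate 1 was the highest at P35. The log2 fold changes were 2.05 for *Mt2* (SE 0.212, adjusted *P*=0.00112) and 1.45 for *Mt1* (SE 0.273, adjusted *P*=0.00718). In WT, *Mt2* was at 3.86, 3.86, 2.0 and 2.05 CPM and then at 25.3, 3.91, 3.82 and 3.16 CPM, with replicate 1 of P35 alone above the rest, and the WT difference was not called (1.61, adjusted *P*=0.130). The interaction for *Mt2* was 0.42 (SE 0.777, adjusted *P*=0.83). Of the 20 tested genes of the NRF2 and metallothionein list 3 rose and 0 fell, beside 2.07% and 1.94% of all genes tested, with a median of 0.20. The third was *Nqo1*, a quinone reductase and NRF2 target, at 8.20, 6.24, 5.62 and 9.54 CPM and then at 11.9, 11.9, 16.6 and 17.0 CPM (log2 0.97, adjusted *P*=0.00864), which was also called in WT (log2 1.12, adjusted *P*=0.00482). The call of *Mt1* was lost without the libraries that stood apart (adjusted *P*=0.0169), and that of *Nqo1* likewise (0.0161).

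Genes of stretched, regrowing or immature fibres rose in KO in small number. Of 13 genes of the ankyrin-repeat and stretch list 2 rose, beside 2.07% of all genes tested, with a list median of -0.23. *Ankrd1*, a titin-binding ankyrin-repeat protein induced by load and injury, was at 37.7, 53.8, 46.0 and 26.8 CPM at P21 and at 133, 203, 169 and 122 CPM at P35 in KO, against 1.52 to 32.7 CPM and 10.6 to 43.0 CPM in WT. The lowest P35 KO library exceeded all other libraries of these 16, and the log2 fold change was 1.95 (SE 0.228, adjusted *P*=0.00166). The WT difference was 1.07 (adjusted *P*=0.363), and the interaction of 0.84 did not pass (adjusted *P*=0.596). A steeper rise of *Ankrd1* in KO was thus not shown. *Mustn1*, a small nuclear protein of growing and regenerating muscle, was at 213, 208, 148 and 228 CPM and then at 338, 367, 306 and 376 CPM in KO (log2 0.81, SE 0.132, adjusted *P*=0.00438). Its P21 KO libraries already lay above the P21 WT range of 24.8 to 56.7 CPM. The WT difference of *Mustn1* was 0.45 (adjusted *P*=0.309), and the interaction of 0.32 did not pass (adjusted *P*=0.591). *Tnnt2*, the cardiac troponin T that fetal skeletal fibres also make, was at 12, 14.0, 10.3 and 11.9 CPM and then at 20.3, 17.4, 32.5 and 26.7 CPM (log2 1.02, SE 0.186, adjusted *P*=0.00636). It was the 1 gene of 15 in the immature sarcomere list that rose, beside 2 that fell (*Dlk1* and *Igf2*). The embryonic and neonatal myosins *Myh3* and *Myh8* were not called, with log2 differences of 1.58 (adjusted *P*=0.0103) and -0.29 (adjusted *P*=0.469). The call of *Tnnt2* was kept in 1 of the 8 fits without 1 library (adjusted *P* up to 0.0225).

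Genes of class I antigen presentation and interferon-inducible genes were among those that rose. Of 33 tested genes of interferon and inflammation 7 rose and 0 fell, beside 2.07% and 1.94% of all genes tested. The median was 0.58 beside 0.025 for all genes. *H2-K1*, a class I heavy chain, was at 38.4, 36.6, 46.1 and 44.3 CPM at P21 and at 84.2, 69.6, 73.0 and 86.9 CPM at P35 in KO, and *H2-D1* was at 65.8, 65.1, 75.0 and 69.9 CPM and then at 115, 106, 106 and 119.5 CPM. The age groups of both were far apart, with log2 fold changes of 0.94 (SE 0.103, adjusted *P*=0.00142) and 0.71 (SE 0.0733, adjusted *P*=0.00112). *Psmb9*, the immunoproteasome subunit that trims class I peptides, was at 1.52, 1.73, 1.5 and 1.67 CPM and then at 2.74, 2.52, 3.18 and 3.03 CPM (log2 0.85, adjusted *P*=0.00409, and 0.0114 without the 2 libraries that stood apart). *Ifi27*, an interferon-induced mitochondrial protein, was at 24.0, 31.9, 27.6 and 32.3 CPM and then at 47.5, 42.8, 53.7 and 48.8 CPM (log2 0.75, adjusted *P*=0.00316). The WT values ran the same way, with log2 differences of 1.00 for *H2-K1* (adjusted *P*=0.0115) and 0.65 for *H2-D1* (adjusted *P*=0.0186), and the interactions were -0.10 (adjusted *P*=0.884) and 0.03 (adjusted *P*=0.977). Reads of class I genes can be shared among paralogs, which also holds for *H2-Q6* (log2 2.6, adjusted *P*=0.00278) and for the interferon-induced GTPase *Gbp10* (log2 2.54, adjusted *P*=0.00392). The WT differences were 3.20 for *H2-Q6* (adjusted *P*=0.0148) and 1.49 for *Gbp10* (adjusted *P*=0.0617), neither of them called. The other 3 genes of the list that rose were *Ifi35*, *Ccl8* and *Cx3cl1*. Macrophage markers summed to 154 to 189 CPM at P21 and 150.3 to 225 CPM at P35 with 1 of 11 changed (*Mrc1*, downward), and neutrophil and lymphocyte markers summed to at most 2.22 CPM in any of the 8 KO libraries.

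*Cx3cl1*, the membrane-tethered chemokine fractalkine, was the interferon and inflammation gene whose change differed between genotypes. It was at 8.61, 8.43, 7.28 and 4.87 CPM and then at 11.2, 25.1, 20.9 and 15.1 CPM in KO, and at 3.34, 4.01, 7.22 and 2.05 CPM and then at 0.997, 2.67, 1.69 and 2.05 CPM in WT. KO rose by 1.32 on the log2 scale (adjusted *P*=0.00867), the WT difference was -1.19 (adjusted *P*=0.0697), and the interaction was 2.47 (SE 0.415, adjusted *P*=0.00165).

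Lysosomal and ubiquitin-like genes showed few calls. Of 34 autophagy and lysosome genes 3 rose and 0 fell, beside 2.07% and 1.94% of all genes tested, with a median of 0.10. *Gabarapl1*, an autophagosome ubiquitin-like protein that is counted in the atrophy list too, was at 45.5, 47.9, 43.2 and 43.1 CPM at P21 and at 71.1, 76.4, 69.9 and 68.0 CPM at P35 in KO. The libraries of each age were close together and the groups far apart, with 0.68 on the log2 scale (SE 0.0655, adjusted *P*=0.000785). WT showed 0.64 (adjusted *P*=0.00915). *Hexa*, a lysosomal hexosaminidase subunit, rose by 0.69 (adjusted *P*=0.00542), and *Ctsk*, a collagen-degrading cathepsin, by 1.28 (adjusted *P*=0.00923), with 16.1, 16.7, 20.8 and 19.9 CPM at P21 and 28.6, 68.6, 47.2 and 31.6 CPM at P35 and replicate 2 the highest. The adjusted *P* was 0.0122 for *Hexa* and 0.0119 for *Ctsk* without the 2 libraries that stood apart. With 1 library left out, the call of *Hexa* was kept in 3 and that of *Ctsk* in 2 of the 8 fits (adjusted *P* up to 0.0199 and 0.0324). Among polyamine and purine genes 2 of 16 rose, beside 2.07% of all genes tested. *Sat1*, the enzyme that acetylates polyamines for export, went from 20.4, 17.5, 21.0 and 24.0 CPM to 44.7, 41.3, 33.1 and 37.8 CPM (log2 0.94, SE 0.121, adjusted *P*=0.00222), and *Oaz1*, the antizyme that targets ornithine decarboxylase for degradation, rose by 0.80 (adjusted *P*=0.00322) and in WT by 0.60 (adjusted *P*=0.00746). *Perp*, a p53 target of cell junctions, was the 1 gene of 24 in the p53 list that rose (1.14, adjusted *P*=0.00599), and its call was kept in 1 of the 8 fits without 1 library. Its adjusted *P* was 0.0114 without the 2 libraries that stood apart and 0.0163 in the fit of all 32.

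The change of slow fibre genes with age differed between KO and WT. In KO, 0 of 17 slow fibre genes were called by edgeR, with a median log2 difference of 0.39, while 9 had an unadjusted *P* under 0.05 and DESeq2 called 2. In WT the median was -1.0, with 1 gene called, downward. For 7 of the 17 the interaction passed, all with the higher change in KO, beside 0.151% of all genes tested for it. *Tnnt1* (GRCm38, chromosome 7, 4504570 to 4516382, minus strand), the slow skeletal troponin T, was at 105, 147, 156 and 113 CPM at P21 and at 229.9, 417, 205 and 159.5 CPM at P35 in KO. In WT it was at 36.5, 55.1, 67.0 and 132 CPM and then at 10.8, 15.1, 14.0 and 8.69 CPM. All P35 KO libraries lay above all P21 KO libraries, although the difference of 0.97 was not called in KO (adjusted *P*=0.0312), and all P35 WT libraries lay below all P21 WT libraries. The interaction was 3.54 (SE 0.386, adjusted *P*=1.17e-05).

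*Myh7*, the slow myosin heavy chain, was at 388, 475, 345 and 279 CPM at P21 and at 349.7, 729.9, 434 and 288 CPM at P35 in KO, with overlap. In WT it was at 136, 88.2, 82.2 and 512 CPM and then at 4.14, 29.3, 5.22 and 2.17 CPM, so that the WT libraries of P35 held very little of it. The interaction was 4.60 (SE 0.776, adjusted *P*=0.00171). *Tnnc1*, the slow and cardiac troponin C, was at 53.7, 83.0, 68.2 and 49.8 CPM and then at 99.1, 162, 120.5 and 93.6 CPM in KO, and *Myl2*, the slow regulatory light chain, was at 76.9, 99.3, 115 and 67.2 CPM and then at 174, 276, 98.9 and 86.1 CPM. Their WT ranges at P35 were 2.49 to 9.66 CPM and 5.04 to 15.1 CPM, far under all KO libraries. Their interactions were 3.37 (SE 0.472, adjusted *P*=0.000428) and 3.32 (SE 0.507, adjusted *P*=0.000673). The other slow genes that passed were *Tnni1* (2.83, adjusted *P*=0.000512), *Atp2a2* (1.43, adjusted *P*=0.00703) and *Tpm3* (1.38, adjusted *P*=0.000673). Replicate 4 of P21 WT was the highest of its group for *Myh7*, *Tnnt1*, *Tnnc1* and *Myl2*, and replicate 2 of P35 KO was the highest of its group. Leaving out each of the 16 libraries in turn, the adjusted *P* of the interaction was at most 0.00564 for *Myh7*, 9.08e-05 for *Tnnt1*, 0.00160 for *Tnnc1* and 0.00278 for *Myl2*. The lowest estimates in those fits were 3.59, 3.07, 2.63 and 2.76.

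Immediate early genes showed the same kind of pattern. These transcription factors are switched on within minutes of a stimulus, and their RNA can also move with handling of the tissue. Of 20 of them 2 rose in KO, beside 2.07% of all genes tested, with a median of 0.71, while the WT median was -0.70. The interaction passed for 4, all with the higher change in KO, beside 0.151% of all genes tested for it. *Egr2*, a zinc finger factor, was at 3.31, 4.81, 6.22 and 4.38 CPM at P21 and at 13.8, 10.50, 18.8 and 9.55 CPM at P35 in KO, and at 2.36, 2.78, 3.86 and 2.91 CPM and then at 2.19, 1.4, 2.64 and 1.18 CPM in WT. All P35 KO libraries exceeded all others, with 1.5 on the log2 scale (SE 0.246, adjusted *P*=0.00443) and an interaction of 2.18 (SE 0.348, adjusted *P*=0.00109). *Egr1*, its relative, was at 26.7, 48.3, 59.2 and 85.4 CPM and then at 138, 96.6, 209 and 134 CPM in KO, and at 19.5, 20.5, 29.9 and 88.5 CPM and then at 7.59, 7.0, 9.78 and 16.2 CPM in WT. Its KO difference was not called (1.41, adjusted *P*=0.0172), and the interaction was 3.36 (SE 0.540, adjusted *P*=0.00109). *Ier2* and *Nr4a2* also passed the interaction (1.5 and 2.10). *Ier3*, a survival factor of this group, rose in KO by 1.17 (adjusted *P*=0.00626) with an interaction that did not pass (0.25, adjusted *P*=0.714). The adjusted *P* of *Ier3* in KO was 0.0226 without the 2 libraries that stood apart. With library totals in place of TMM, 5 members of this list were called. That scaling also raised the upward calls over all genes from 326 to 762, so the 5 are not read as added support.

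**Figure D4:**
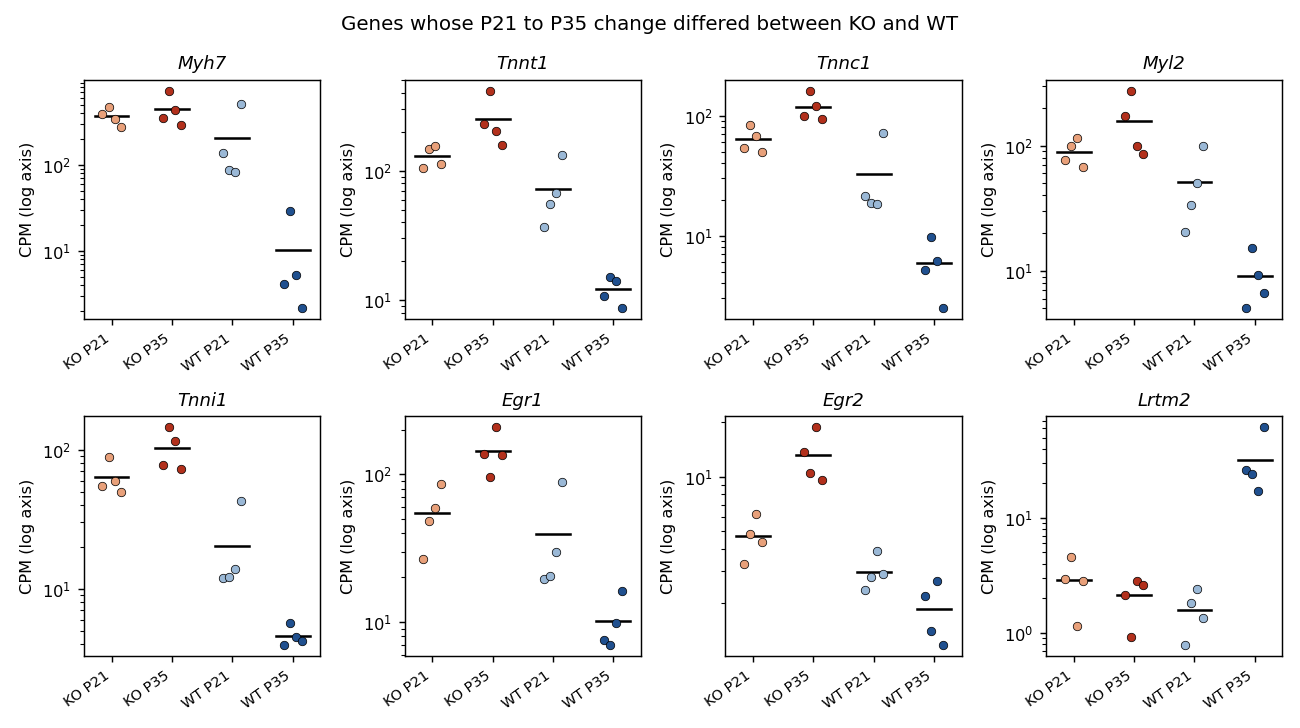
Levels of genes whose change with age differed between KO and WT in each library (y axis, CPM on a log scale, a panel per gene), with a point per library and a bar at the mean of 4. For *Tnnt1* and *Egr1* the P35 points lie above the P21 points in KO and below them in WT, and for *Lrtm2* the P35 WT libraries (17.1 to 61.4 CPM) lie far above all others while the KO age groups overlap.

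Of the genes that passed the interaction and reached a mean of 1 CPM in 1 of the 4 groups, the highest estimate was that of *Tac4*, a tachykinin precursor, at 0.317, 0.583, 0.246 and 0.422 CPM and then 0.334, 0.649, 2.54 and 1.85 CPM in KO and at 0.418, 0.320, 0.483 and 0.358 CPM and then 0.0487, 0.0468, 0.0475 and 0.0231 CPM in WT. Its P35 WT libraries were all under 0.05 CPM, close to 0, so that the size of the estimate (4.97, adjusted *P*=0.000673) is loosely set, and the P35 KO libraries were uneven among themselves.

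*Lrtm2*, *Amd1*, *Cacna2d4* and *Chac1* rose with age in WT and were not called in KO. *Lrtm2*, a leucine-rich repeat membrane protein, was at 0.786, 1.82, 2.41 and 1.34 CPM at P21 and at 26.1, 24.2, 17.1 and 61.4 CPM at P35 in WT, against 2.94, 4.54, 1.15 and 2.82 CPM and 2.12, 0.914, 2.82 and 2.6 CPM in KO. The WT groups were far apart and the KO groups overlapped, with an interaction of -4.78 (SE 0.572, adjusted *P*=3.39e-05). *Amd1*, the S-adenosylmethionine decarboxylase that commits to spermidine synthesis, was at 156, 146, 115 and 151 CPM and then at 769, 666, 211 and 697 CPM in WT, and at 103, 101, 115 and 92.4 CPM and then at 102, 73.3, 127 and 126 CPM in KO. Its interaction was -1.99 (SE 0.323, adjusted *P*=0.00121), and replicate 3 of P35 WT was the lowest of its group. Reads of *Amd1* can be shared with its copy *Amd2*. *Cacna2d4*, an auxiliary calcium channel subunit, was at 4.49, 6.69, 3.07 and 3.24 CPM and then at 22.7, 19.6, 14.3 and 42.2 CPM in WT, and at 1.66 to 2.47 CPM and 0.605 to 2.41 CPM in KO. *Lrtm2* (GRCm38, chromosome 6, 119315133 to 119330766, minus strand) lies within *Cacna2d4* (119236526 to 119352407, plus strand). The strand setting of the counting is not given, so reads of this locus may be shared. *Lrtm2* and *Cacna2d4* are therefore not read as independent genes. *Chac1*, a glutathione-degrading enzyme of the amino acid stress response, was at 3.86, 6.54, 6.47 and 4.79 CPM and then at 18.9, 22.4, 35.9 and 14.5 CPM in WT, and at 8.06, 14.3, 16.6 and 17.8 CPM and then at 15.9, 6.56, 6.42 and 3.72 CPM in KO. The interactions were -2.86 (adjusted *P*=0.00875) and -2.88 (adjusted *P*=0.00706). *Tph1*, which makes serotonin outside the brain, and the gene model *Gm5420* had interactions of -2.22 (adjusted *P*=0.00532) and -2.58 (adjusted *P*=0.00109). Neither was called in WT, with log2 differences of 1.54 (adjusted *P*=0.0301) and 1.38 (adjusted *P*=0.0259). Both were at 2 CPM or less in every KO library. Without the 2 libraries that stood apart, the adjusted *P* of the interaction was 0.0215 for *Cacna2d4*, 0.0260 for *Chac1* and 0.0143 for *Tph1*. With library totals it was 0.0124 for *Cacna2d4* and 0.0106 for *Chac1*.

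Some lists held no changed gene in KO. Their counts are read beside 4.01% of all genes tested that changed and 38.7% with an unadjusted *P* under 0.05, and at these shares a list of this size may hold no call, so that nothing particular to the pathways follows from them. Of 20 phosphoinositide genes 0 were changed by edgeR, with a median of -0.13, and 6 had an unadjusted *P* under 0.05 while DESeq2 called 0. *Mtmr3*, a phosphatase of the myotubularin family, was at 97.1, 82.7, 87.3 and 85.6 CPM at P21 and at 71.0, 72.3, 62.3 and 63.2 CPM at P35 (log2 difference -0.38, adjusted *P*=0.0109). *Mtmr6*, of the same family, was at 74.0 to 79.2 CPM and 76.1 to 89.6 CPM, with overlap. By edgeR 0 of 20 denervation genes were changed (6 with an unadjusted *P* under 0.05, 2 called by DESeq2), and 0 of 31 proteasome genes (13 and 0). The same count of 0 was found for 20 genes of the unfolded protein response (11 and 1), 20 tRNA synthetases (12 and 0), 19 heat shock genes (5 and 0), 28 cell cycle genes (5 and 0) and 18 clock genes (8 and 2), with the numbers in parentheses in the same order. The smallest KO adjusted *P* among their most abundant members was 0.00616 for *Cdkn1c*, a cyclin-dependent kinase inhibitor at 85.4, 77.5, 85.5 and 102 CPM and then at 61.1, 53.1, 53.4 and 65.8 CPM, whose log2 difference of -0.57 fell just short of the fold threshold. *Cdkn1a*, another such inhibitor and a denervation-list member, was at 334, 334, 230.3 and 202 CPM and then at 166, 235, 361 and 225 CPM with overlap, against 21.8 to 30.0 CPM and 10.3 to 29.1 CPM in WT. *Trim63*, the ubiquitin ligase MuRF1 of atrophy, was at 297, 395, 291 and 334 CPM and then at 405, 324, 469 and 415 CPM (log2 difference 0.31, adjusted *P*=0.114). *Hspa5*, the main chaperone of the endoplasmic reticulum, was at 365, 393, 384 and 346 CPM and then at 230.4, 317, 278 and 309 CPM (log2 difference -0.38, adjusted *P*=0.0276).

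Lists with 1 fallen member included those of the neuromuscular junction, fatty acid oxidation and the integrated stress response, beside 1.94% of all genes tested that fell. *Lrp4*, the agrin receptor of the junction, was at 38.1, 38.2, 37.4 and 36.9 CPM and then at 20.4, 26.3, 18.3 and 19.1 CPM (log2 -0.83, SE 0.112, adjusted *P*=0.00259), the 1 of 12. Its WT difference of -0.63 was not called (adjusted *P*=0.0234), and the interaction did not pass (-0.23, adjusted *P*=0.578). *Ppard*, a nuclear receptor of oxidative metabolism, was the 1 of 29 (log2 -0.68, adjusted *P*=0.00402). *Stc2*, a secreted stanniocalcin, was the 1 of 29 (log2 -0.73, adjusted *P*=0.00468). The call of *Ppard* was lost with library totals. Without the 2 libraries that stood apart the adjusted *P* was 0.0150 for *Ppard* and 0.0191 for *Stc2*, and in the fit of all 32 that of *Stc2* was 0.0114.

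Nuclear genes of oxidative phosphorylation showed 0 changed of 55 by edgeR, with a median of -0.057, while 24 had an unadjusted *P* under 0.05 (beside 38.7% of all genes) and DESeq2 called 1. Their most abundant members *Atp5b* and *Atp5a1*, the beta and alpha subunits of ATP synthase, were nevertheless lower in every P35 KO library. *Atp5b* was at 3789, 3793, 3544 and 3677 CPM at P21 and at 2745, 2597, 2541 and 2860.4 CPM at P35, with adjusted *P*=0.00634 and a log2 difference of -0.45, under the fold threshold. *Atp5a1* differed by -0.44 (adjusted *P*=0.00725). In WT the values were -0.03 and -0.15.

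Mitochondrially encoded genes took 8.41% ± 0.261 of the counts at P21 and 10.4% ± 0.117 at P35 in KO (SD, n=4). The difference of 2.01 percentage points had *P*=0.0286 in an exact permutation test, the smallest *P* that 4 against 4 libraries can give. In WT the share went from 10.8% ± 0.917 to 15.6% ± 2.34, with the same *P*. Single mitochondrial genes were harder to read, because chromosome 1 (GRCm38, 24612407 to 24616197, minus strand) holds pseudogene copies of them. *Gm28661* has no mismatch to *mt-Co2*, a subunit of cytochrome c oxidase. The first 60 bases of the gene and of the copy are shown because reads from this stretch cannot be assigned to one or the other.
mt-Co2: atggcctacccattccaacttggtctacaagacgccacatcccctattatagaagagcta
Gm28661: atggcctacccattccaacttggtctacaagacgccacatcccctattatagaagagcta
*mt-Co2* alone was at 4083, 4156, 3684 and 4058 CPM at P21 and at 15964, 12519.9, 16509.6 and 17348 CPM at P35 in KO, or 1.98 on the log2 scale (SE 0.125, adjusted *P*=0.000263). *Gm28661* was at 8709, 10243, 9227 and 9416 CPM and then at 0.10, 1168, 5.31 and 8.11 CPM. In KO the gene was higher and the copy lower in every P35 library than in every P21 library. In WT at P35, *mt-Co2* was at 12226, 25814, 16427 and 27929 CPM and *Gm28661* at 10948, 2425, 14674 and 687 CPM, so that both were high in replicates 1 and 3. Whether all libraries were quantified in the same run is not given in the sources used here, and a change with age and a different division of reads cannot be told apart for the gene or the copy alone. In KO the sum of gene and copy was at 12792, 14399, 12911 and 13474 CPM and then at 15964, 13688, 16515 and 17357 CPM, a log2 difference of 0.26 that was not called (adjusted *P*=0.0956).

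The same held for *mt-Co3*, another oxidase subunit, whose log2 fold change of 1.13 (adjusted *P*=0.00445) became 0.11 with its copy *Gm28437* added (adjusted *P*=0.338). *mt-Atp8*, an ATP synthase subunit, fell from 1023, 868, 849 and 906 CPM to 545, 615, 648 and 594 CPM (log2 -0.59, adjusted *P*=0.00336), at the edge of the fold threshold, and its call was lost with library totals and with other filters on low counts. With 6 copies added to their genes, the mitochondrial share was 11.4% ± 0.164 at P21 and 13% ± 0.0547 at P35 in KO, a difference of 1.58 points (exact permutation *P*=0.0286). WT went from 14.4% ± 1.2 to 20.3% ± 2.96, a difference of 5.94 points.

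**Figure D5:**
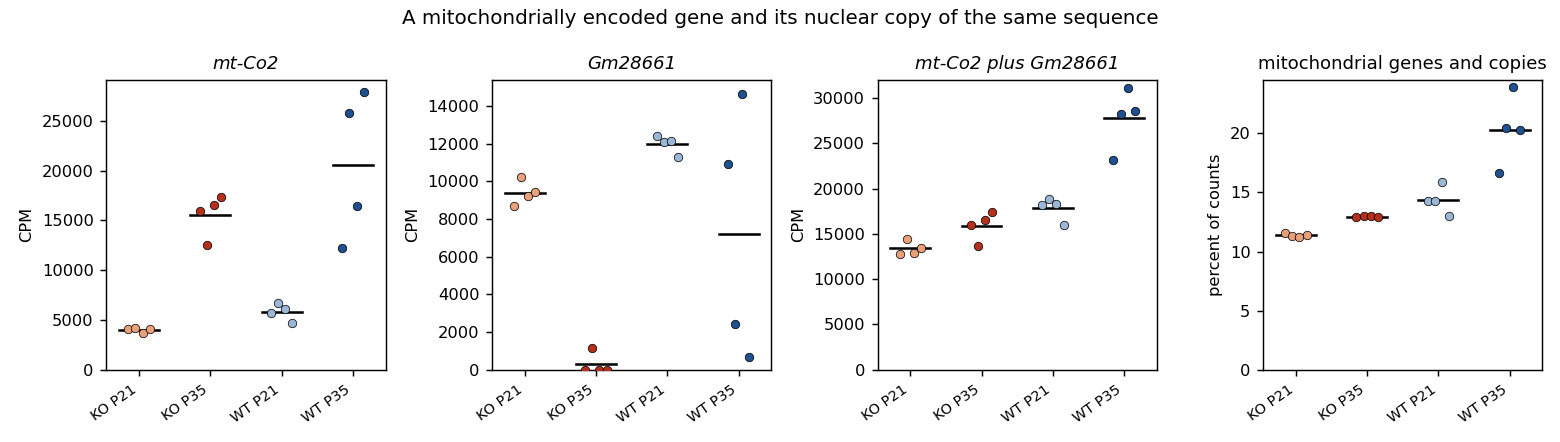
Levels of *mt-Co2*, of its nuclear copy *Gm28661* and of their sum (y axes, CPM), and the percent of counts on all mitochondrially encoded genes with their copies, in each library of KO and WT at P21 and P35, with a bar at the mean of 4. *Gm28661* goes from 8709 to 10243 CPM to at most 1168 CPM in KO while *mt-Co2* is higher, and the sum moves far less.

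Among the P35 KO libraries the genes with the widest spread, apart from *Gm28661*, were bone and matrix genes. *Tnn*, a tenascin of bone and tendon, was at 0, 41.7, 4.52 and 0 CPM over the 4 P35 KO libraries. *Mmp13*, a collagenase of bone and cartilage, was at 0.0501, 74.9, 17.9 and 0.303 CPM, *Ibsp*, bone sialoprotein, at 0.0501, 42.7, 7.69 and 0 CPM and *Mmp9*, a gelatinase of osteoclasts and leukocytes, at 0.117, 22.6, 3.31 and 0.410 CPM. Replicate 2 was the highest for all 4 and replicate 3 the next, while replicates 1 and 4 were near 0. *Mmp13* and *Mmp9* were not called between ages (adjusted *P*=0.0347 and 0.0439), and *Tnn* and *Ibsp* did not pass the filter on low counts. The chondrocyte and bone markers summed to 13.9, 210.5, 23.1 and 17.4 CPM in the P35 KO libraries and to 9.83, 7.39, 35.1 and 12.6 CPM in the P21 KO libraries. Without this library and replicate 3 of P21, the number of changed genes was 441.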

How the data were processed

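RNA was extracted from whole TA muscle of 32 mice, poly(A)-selected and sequenced as paired ends. The authors deposited a table of expected counts (gene-level estimates that need not be whole, 4.262% of values) for 54838 genes. Per the labels, reads were aligned to GRCm38 with STAR 2.6.1 and quantified with RSEM 1.2.22, while the study's methods name HTSeq as the counter. The strand setting and annotation release are not given in the sources used here. Estimates were rounded to whole numbers. Genes with enough counts (filterByExpr) were tested with edgeR 4.0.16, by TMM scaling and quasi-likelihood tests adjusted by Benjamini-Hochberg over all genes tested. The comparisons within a genotype used its 8 libraries, and the interaction used all 32. CPM were scaled by TMM over the 32 libraries.

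On simulated counts the KO test recovered 74% of 100 genes changed by 1 and 99% of 100 changed by 2 on the log2 scale among 15543 genes, with 0 false calls. The interaction test recovered 67% and 96% among 16514 genes, with 1 false call. The simulated libraries followed the fitted spread and none stood apart, so the rate of false calls in the real libraries was not measured. No pair of replicates agreed within counting noise. Counting error is covered by the test, and library totals of 49889311 to 65108067 in the 8 KO libraries set the precision. P-values measure the spread between these mice.

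Named were *Mtm1*, 12 changed genes from either end of the fold changes (age groups not overlapping, at least 1 CPM in 1 group), up to 4 changed genes of each of 30 lists (the 2 most abundant where none changed), 6 interaction genes per direction, the 5 most variable genes of P35 KO and marker genes of 14 cell types. *Myh3*, *Myh4*, *Myh8*, *Col6a1*, *Cx3cl1*, *Ifi35*, *Ccl8*, *Tnni1*, *Atp2a2*, *Tpm3*, *Ier2*, *Nr4a2* and, in the closing section, *Tnmd*, *Ulk1* and *Txnrd1* were added after their values were seen. Some selected genes are not reported here. The members and lists were chosen with earlier results of these data known.

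The alternatives were DESeq2 1.42.0, other scalings, other filters on low counts, other sets of libraries and a replicate block. Same-numbered P21 and P35 replicates correlated between -0.36 and 0.38 in their deviations from the group means, and the numbers were not taken as pairs.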

Additional observations from a re-analysis of the deposited data

Results flagged for a closer look

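Single libraries stood far from the other 3 of their group in 16 of 242 groups of 4, where chance gives about 1 in 20. The 2 shares are close, so the count shows no clear excess. *Gm28661*, *Tnn* and *Mmp9* had been named for their spread in the P35 KO group, which favoured such a flag. *Alas2*, *Hba-a1* and *Hba-a2* are members of the erythroid sum, so these flags are not separate. In replicate 2 of P35 KO these were *Gm28661* at 1168 CPM (others at most 8.11), *Tnn* at 41.7 CPM (at most 4.52), *Mmp9* at 22.6 CPM (at most 3.31) and the cartilage and bone markers at 210 CPM (at most 23.1). In replicate 3 of P21 KO they were *Cyp2e1* at 0.574 CPM (at most 0.187), *Ces1f* at 0.123 CPM (others at 0) and the tendon markers at 988 CPM (at most 220). In replicate 3 of P35 KO they were *Alas2* at 3.80 CPM (at most 1.82), *Hba-a2* at 117 CPM (at most 69.0), *Hba-a1* at 78.5 CPM (at most 42.3) and the erythroid sum at 433 CPM (at most 252). Replicate 1 of P35 KO stood apart for *Cacna1s* at 806 CPM (at most 702) and *Nr1d2* at 180 CPM (at most 156), replicate 1 of P21 KO for *Agtr2* at 3.71 CPM (at most 2.47), and replicate 4 of P21 KO for the neutrophil markers at 2.22 CPM (at most 0.791) and the lymphocyte markers at 1.71 CPM (at most 0.978).

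The change with age differed between KO and WT by the test of the interaction for 14 named genes. The estimates, KO minus WT on the log2 scale, were 4.97 for *Tac4*, 4.60 for *Myh7*, 3.54 for *Tnnt1*, 3.37 for *Tnnc1*, 3.36 for *Egr1*, 3.32 for *Myl2* and 2.18 for *Egr2*. They were -4.78 for *Lrtm2*, -2.88 for *Chac1*, -2.86 for *Cacna2d4*, -2.58 for *Gm5420*, -2.22 for *Tph1*, -1.99 for *Amd1* and -1.70 for *Pm20d2*. With each of the 16 libraries of P21 and P35 left out in turn, 10 of the 14 stayed under an adjusted *P* of 0.01, and the other 4 (*Pm20d2*, *Chac1*, *Cacna2d4* and *Tph1*) reached at most 0.0309.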

How the results depend on the processing

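The 631 changed genes of KO became 1199 with DESeq2, 1179 in a fit of all 32 libraries, 1427 at an adjusted *P* under 0.05, 80 with a replicate block and 26 when tested against a fold change of 1.5. They were 608 to 914 under other scalings and filters on low counts, and 620 were called by both tools. With 1 library left out they were 187 (without replicate 1 of P21) to 901 (without replicate 2 of P35), and the other 6 fits held 190 to 373. The 368 of WT became 851, 744, 980, 175 and 37 in the same order, and 116 to 264 with 1 library left out. The 86 interaction genes became 9 from the 16 libraries of P21 and P35, 325 with DESeq2, 56 without both libraries that stood apart, 53 without a filter on low counts and 406 at an adjusted *P* under 0.05, and 37 to 116 with 1 library left out (37 without replicate 1 of P21 KO, 38 without replicate 3 of P35 KO, 46 without replicate 4 of P35 WT and 55 to 57 without replicate 2, 3 or 4 of P21 WT). With a replicate block they were 68, and with library totals 68 (56 higher and 12 lower in KO).

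The mitochondrial share in KO differed by 1.94 to 2.13 percentage points with 1 library left out. With pairs by replicate number the difference was 2.01 in KO and 4.85 in WT, with an exact *P* of 0.125, the smallest 4 pairs can give. In WT the difference was 4.11 to 5.95 with 1 library left out, and the exact *P* was 0.0571 without any 1 of the P21 libraries. No selected call or interaction changed sign under any alternative. Of the 66 selected KO calls, 66 were kept with DESeq2, 57 with library totals, 47 without both libraries that stood apart and 25 with the replicate block. The causes were not tested.

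Depth was between 49889311 and 65108067 counts per KO library, so that genes at a few counts, such as *Slc4a1* at P35 and *Ces1f* at P21, were limited by counting and the rest by the spread of 4 mice. Bulk tissue does not separate cell number from RNA per cell.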

Other observations

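Schwann cell and tendon markers varied from mouse to mouse. The Schwann markers summed to 576, 543, 636 and 432 CPM at P21 and 816, 1294, 587 and 323 CPM at P35 in KO, with replicate 2 of P35 the highest and replicate 4 of P35 the lowest of the 8. The tendon markers summed to 751, 983, 532 and 392 CPM at P35, and *Tnmd*, the tendon protein tenomodulin, was at 4.78, 4.60, 60.1 and 8.45 CPM at P21 and 40.5, 48.8, 22.3 and 19.7 CPM at P35, with replicate 3 of P21 above all P35 libraries. The satellite cell markers summed to 178, 171, 162 and 158 CPM at P21 and 115, 116, 144 and 146 CPM at P35 in KO, with no overlap, against 121 to 150.4 CPM and 116 to 145 CPM in WT. The fibroadipogenic markers summed to 2391 to 5817 CPM at P21 and 2744 to 3942 CPM at P35 in KO with 1 of 9 called (*Ly6a*, upward), and the 8 keratinocyte markers to 28.8 to 35.8 CPM and 25.0 to 30.7 CPM. Most of the keratinocyte sum was *Trp63*, at 25.6 to 31.6 CPM and 20.2 to 23.5 CPM. *Krt10* went the other way, at 2.49 to 3.60 CPM and 3.83 to 5.16 CPM. *Krt5*, *Krt14*, *Krt15* and *Krt1* were at most 0.0416 CPM at P21 and at most 0.398 CPM at P35. The sum is therefore not read as keratinocyte content.

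In the autophagy and lysosome list 1 of 34 genes passed the interaction in the lower direction, beside 0.312% of all genes tested for it. In the NRF2 and metallothionein list it was 1 of 22. These counts are too small to speak for either list. *Ulk1*, the kinase that starts autophagosome formation, was at 86.4, 67.7, 74.3 and 80.7 CPM and then at 64.7, 54.1, 49.6 and 53.8 CPM in KO, and at 65.5, 68.4, 67.7 and 70.3 CPM and then at 107, 77.6, 93.0 and 93.3 CPM in WT. Its interaction was -0.92 (SE 0.178, adjusted *P*=0.00532). *Txnrd1*, the cytosolic thioredoxin reductase, had an interaction of -0.47 (SE 0.0945, adjusted *P*=0.00856), with 96.1 to 102 CPM and 84.7 to 101 CPM in KO and 93.6 to 103 CPM and 116 to 139 CPM in WT.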
